A study of Mus musculus with 12 samples.

Results

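The 42 genes described here encode proteins that carry a cell through mitosis, and their RNA was measured in colonic adenomas of mice that carry the ApcMin allele. They were taken by gene symbol from a list of mitotic kinases, cyclins, spindle, kinetochore, condensin and cytokinesis genes. That list was chosen with earlier results of these data known. All 42 were found once each among the 25705 genes of the deposited table. The values are in FPKM, fragment counts scaled by transcript length and by the number of mapped fragments, a unit that allows levels of different genes to be compared. All 42 passed the filter on low values (at least 1 FPKM in at least 3 libraries), as did 15150 genes in all.

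The samples form 4 groups of 3 libraries, all from C57BL/6J mice aged 150 to 160 days and all heterozygous for ApcMin, a germline truncating mutation of the tumour suppressor gene Apc, so the control group carries it too. The Tet1-null group has the genotype Tet1-/- Tdg+/+ ApcMin/+, and the group called double-heterozygous is Tet1+/- TdgN151A/+ ApcMin/+. The Tdg-heterozygous group is Tet1+/+ TdgN151A/+ ApcMin/+, and the controls are Tet1+/+ Tdg+/+ ApcMin/+. Tet1 is an enzyme that oxidises 5-methylcytosine, Tdg is a glycosylase that removes the oxidised bases, and N151A names the substitution in its mutant allele. Whether each library comes from 1 animal or 1 adenoma is not given in the sources used here, so p-values measure the spread between these samples. No normal mucosa and no tissue without the ApcMin allele was part of the groups.

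Entry into mitosis is driven by the kinase Cdk1 bound to B-type cyclins, and exit by the anaphase-promoting complex, which Cdc20 and Ube2c help to mark cyclins and other proteins for destruction. The genes for these proteins are transcribed late in the cell cycle. Their promoters often hold a CHR element (cell cycle genes homology region), the site of the MuvB complexes that repress them in resting cells and, with B-Myb and Foxm1, activate them before division, together with CCAAT boxes bound by the factor NF-Y. In the intestine dividing cells lie at the base of the crypts, and in Apc-mutant adenomas they are spread through the dysplastic glands.

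Promoters of the mitosis genes shared these short sequences. RefSeq promoter windows of GRCm38.p6 (the same coordinates as mm10), from 250 bases before to 50 bases after the annotated start, were matched by symbol for 36 of the 42 genes, in 39 windows, since 3 genes have 2 windows each. Ccna2, Foxm1, Aurkb, Kif20a, Tpx2 and Smc4 had no entry. The CHR motif was searched as TTTGAA or TTCGAA on both strands (TTCAAA is the reverse complement of the first). The CCAAT motif was searched as CCAAT or ATTGG, and matches of this pair can overlap each other. A CHR motif stood in 29 of 39 windows (74.4%), against 19.2% of all 32851 windows, and a CCAAT motif in 31 (79.5%), against 37.4%. Both stood in 27 windows (69.2%), against 7.52% of all windows. With the window shortened to the 150 bases from 100 before to 50 after the start, both motifs stood in 59.0% of member windows and in 2.09% of all windows. Among genes outside the list, both motifs stood in 38.0% of the windows of other mitosis genes and in 14.7% of those of DNA replication genes. For genes listed for the anaphase-promoting complex they stood in 0 of 17 windows. These are counts of letters, not of bound sites.

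**Figure D1:**
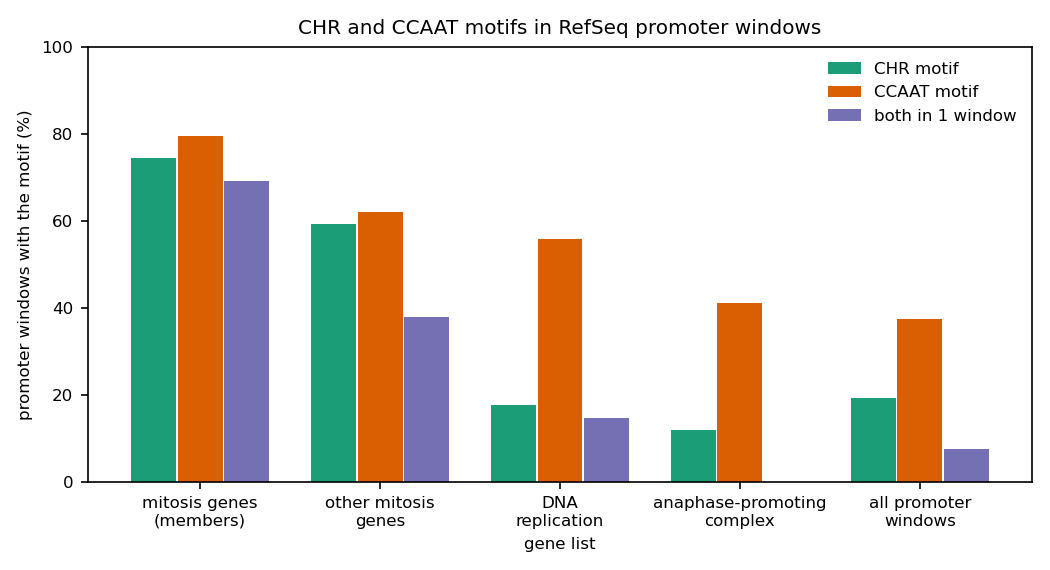
Share of 300-base RefSeq promoter windows (vertical axis, percent) that hold a CHR motif, a CCAAT motif or both, for 5 gene lists on the horizontal axis. Both motifs stand in 69.2% of the 39 windows of the mitosis genes and in 7.52% of all windows.

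The windows of the 5 genes with the highest mean level among those with a CHR motif, and that of Ccnb1, the first listed member whose window holds no CHR motif, are printed to show how the motifs are spaced. Capitals mark CHR and CCAAT matches, and sequences run 5′ to 3′ on the gene's strand.
Top2a: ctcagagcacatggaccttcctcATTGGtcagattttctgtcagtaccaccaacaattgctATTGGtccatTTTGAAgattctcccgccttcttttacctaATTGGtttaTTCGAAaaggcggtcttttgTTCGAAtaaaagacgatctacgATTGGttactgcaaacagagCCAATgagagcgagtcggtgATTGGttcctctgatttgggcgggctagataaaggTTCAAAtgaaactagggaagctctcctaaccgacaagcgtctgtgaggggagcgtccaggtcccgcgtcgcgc
Cdk1: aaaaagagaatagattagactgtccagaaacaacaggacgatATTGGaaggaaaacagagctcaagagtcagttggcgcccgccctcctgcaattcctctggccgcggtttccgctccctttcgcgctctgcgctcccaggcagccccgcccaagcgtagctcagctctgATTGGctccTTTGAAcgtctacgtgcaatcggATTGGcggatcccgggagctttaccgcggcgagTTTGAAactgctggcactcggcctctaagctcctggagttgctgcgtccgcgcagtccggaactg
Ube2c: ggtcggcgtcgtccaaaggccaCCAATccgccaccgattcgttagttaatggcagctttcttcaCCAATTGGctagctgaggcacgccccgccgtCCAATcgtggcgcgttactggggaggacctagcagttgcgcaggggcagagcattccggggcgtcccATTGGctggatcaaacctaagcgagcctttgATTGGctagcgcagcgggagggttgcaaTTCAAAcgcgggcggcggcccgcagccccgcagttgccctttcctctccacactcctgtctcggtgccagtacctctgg
Cdca3: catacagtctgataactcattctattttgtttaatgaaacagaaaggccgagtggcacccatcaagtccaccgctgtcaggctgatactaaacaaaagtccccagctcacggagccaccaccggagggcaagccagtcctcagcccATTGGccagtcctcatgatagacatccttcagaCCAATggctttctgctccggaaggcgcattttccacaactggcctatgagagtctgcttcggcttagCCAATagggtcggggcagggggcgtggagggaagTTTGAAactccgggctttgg
Cenpa: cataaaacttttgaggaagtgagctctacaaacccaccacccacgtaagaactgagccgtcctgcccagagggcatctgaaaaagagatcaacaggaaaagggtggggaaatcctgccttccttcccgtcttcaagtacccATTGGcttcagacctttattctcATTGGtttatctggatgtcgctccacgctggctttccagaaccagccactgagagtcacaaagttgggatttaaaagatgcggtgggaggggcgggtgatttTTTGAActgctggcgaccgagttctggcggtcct
Ccnb1: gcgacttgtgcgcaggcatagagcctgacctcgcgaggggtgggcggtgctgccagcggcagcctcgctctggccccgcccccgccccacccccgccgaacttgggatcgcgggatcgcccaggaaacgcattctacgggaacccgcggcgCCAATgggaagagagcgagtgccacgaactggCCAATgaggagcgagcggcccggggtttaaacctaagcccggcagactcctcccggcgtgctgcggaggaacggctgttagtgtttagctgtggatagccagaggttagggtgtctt

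In the Top2a window (chr11:99024140-99024439, minus strand) 4 CHR and 6 CCAAT matches were found, and the CHR match nearest to the start begins 23 bases upstream. The window of Cdk1 (chr10:69352863-69353162, minus strand) holds 2 CHR matches, 71 and 15 bases upstream, and 3 CCAAT matches. That of Ube2c (chr2:164769679-164769978, plus strand) has 1 CHR match 29 bases upstream and 6 CCAAT matches, 2 of which overlap. In Cdca3 (chr6:124829926-124830225, plus strand) and Cenpa (chr5:30666636-30666935, plus strand) the single CHR match lies downstream of the start, at positions 31 and 17. Ccnb1 (chr13:100786437-100786736, minus strand) has 2 CCAAT matches and no CHR match in this window.

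Markers of the labelled tissue were expressed, and several libraries stood apart from the others of their groups. All 12 epithelial markers had a mean of at least 1 FPKM, as did the 7 colon markers that were matched of 8 written. In the controls the colon markers summed to 319 to 3708 FPKM and 6 Paneth cell markers to 2602 to 3762 FPKM. Tet1 was low in every library, between 0.127 and 0.621 FPKM. The highest value was that of Tet1-null library 0, above all controls (0.403 to 0.478 FPKM), and the lowest that of double-heterozygous library 0. Tdg lay between 25.8 and 40.1 FPKM. Whole-gene values therefore do not check the genotypes, and groups are given as labelled. For 19 tested Wnt target genes the median log2 difference from the control mean was lowest in Tet1-null library 1 (-2.85), followed by Tdg-heterozygous library 2 (-1.67) and double-heterozygous library 0 (-0.61). The remaining 9 libraries lay from -0.055 to 0.25. The median of 12 neutrophil markers reached 3.19 in Tdg-heterozygous library 2, 2.16 in double-heterozygous library 0 and 1.18 in Tet1-null library 1. Tet1-null library 0 was low in goblet (-3.96), absorptive colonocyte (-2.25) and colon markers (-2.18), and control library 0 was high in them (1.18, 1.82 and 1.74). These lists are not independent, since the colon list shares Zg16 with the goblet list and Slc26a3, Aqp8 and Car1 with the colonocyte list. Xist, expressed from the inactive X chromosome of females, exceeded 10 FPKM in 1 Tet1-null, 0 double-heterozygous, 2 Tdg-heterozygous and 2 control libraries. Control library 0 did not exceed it (0.0758 FPKM), while control libraries 1 and 2 had 361 and 298 FPKM. Summed over all genes, FPKM came to between 663551 and 977282 a library, and the depth in reads is unknown. Each library is called by its group and its column number, which runs from 0 to 2. In bulk tissue, fewer dividing cells and less RNA of these genes per cell cannot be told apart.

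Top2a, the topoisomerase that untangles sister chromatids, had the highest mean FPKM over the 12 libraries (116.5), followed by Cdk1 (104 FPKM), and these were the 2 members over 100 FPKM. Ube2c (68.2 FPKM), the checkpoint protein gene Mad2l1 (54.9 FPKM) and Cdca3 (53.8 FPKM), which encodes a trigger of mitotic entry, came next. At the other end, 8 members had a mean under 10 FPKM, Nuf2 (9.9998 FPKM) just under it. The lowest were Wdr62 (4.97 FPKM), which encodes a spindle pole protein, and Cenpe (5.48 FPKM), which encodes a kinetochore motor. The median of the members' mean levels was 19.4 FPKM.

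Most of these genes had their highest and lowest values in the same libraries. In control library 1 the level was the highest of all 12 for 39 of the 42 genes. The exceptions were Cdk1, highest in control library 2, Mad2l1, highest in Tet1-null library 0, and Cdca3, highest in Tet1-null library 1. In double-heterozygous library 0 the level was the lowest of all 12 for 34 genes. Another control, library 0, was the lowest for 4 genes (Kif4, Nusap1, Ncapd2 and Cdca3) and among the 3 lowest libraries for 30. So the control group held both the highest library and one of the lowest. All 42 genes were higher in control library 1 than in control library 0, by 1.31-fold to 2.51-fold, with a median of 1.89-fold. Control library 1 exceeded double-heterozygous library 0 by a median of 2.33-fold. For 38 genes control library 0 lay below the mean of the 9 mutant libraries.

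Against the mean of the controls, the median log2 difference of the 42 genes, in log2(FPKM + 1), was -0.46, 0.39 and 0.061 in control libraries 0, 1 and 2. It was -0.21, -0.23 and -0.32 in the Tet1-null libraries and -0.75, -0.11 and -0.11 in the double-heterozygous libraries. In the Tdg-heterozygous libraries it was -0.35, -0.36 and -0.24. By these medians every mutant library lay below the control mean, and all but double-heterozygous library 0 lay above control library 0. The Tdg-heterozygous and Tet1-null groups were narrow, with a median range within the group of 0.34 and 0.33 on the log2 scale, while the control and double-heterozygous groups spanned 0.87 and 0.70. For 40 of the 42 genes the range among the controls was larger than the largest mean difference of any mutant group from the controls.

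**Figure D2:**
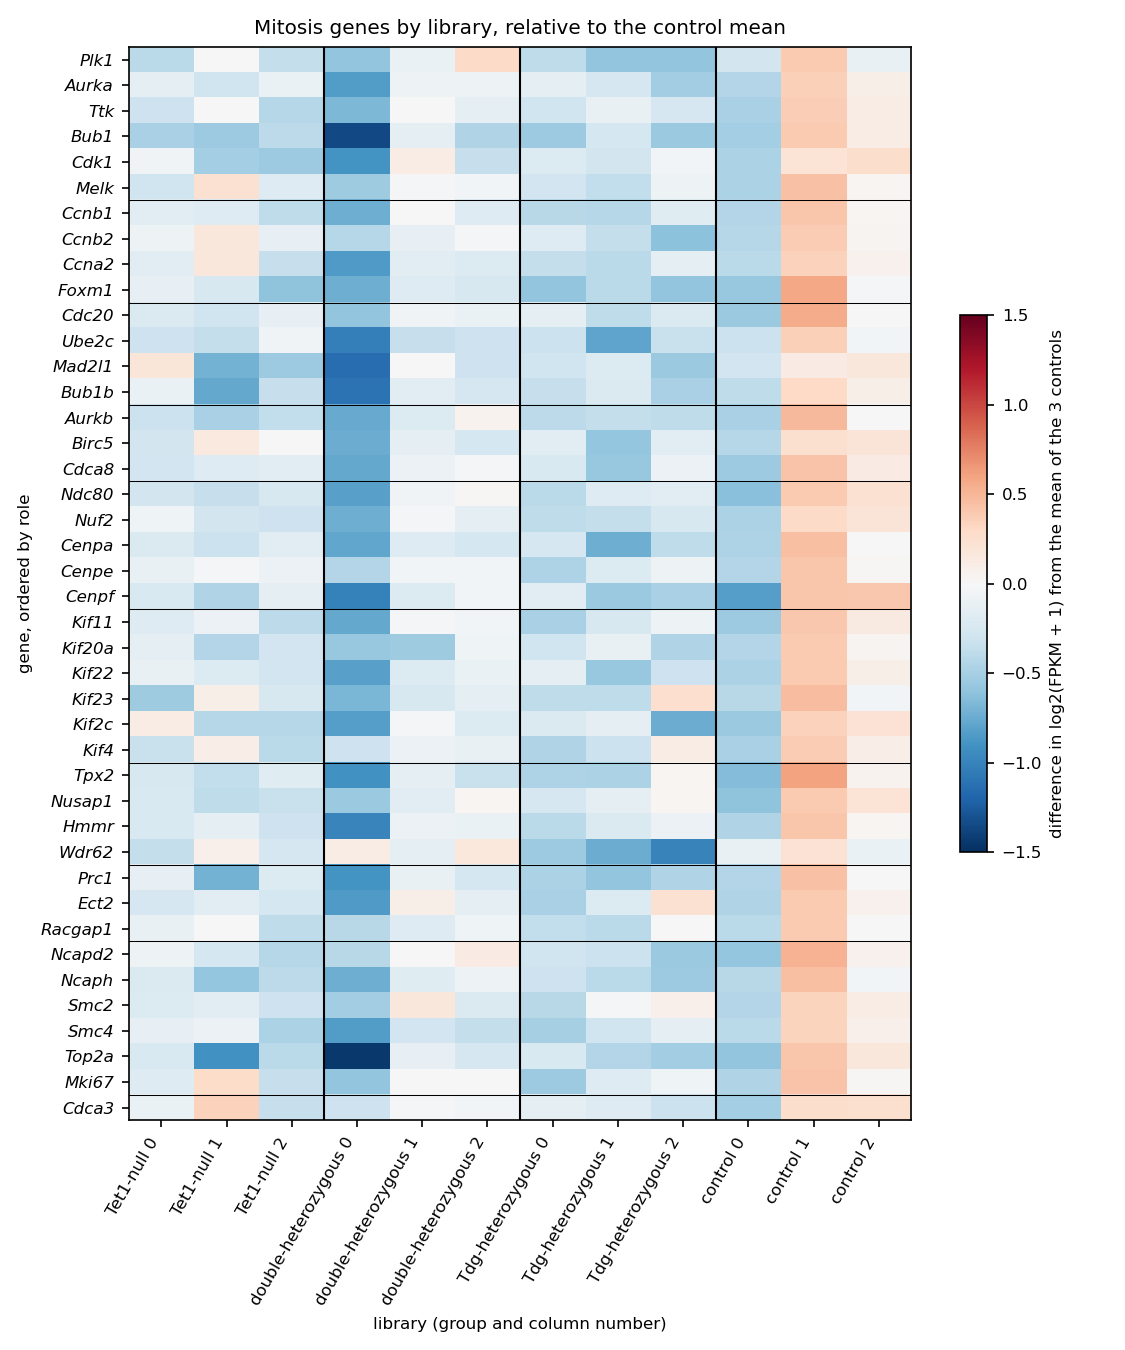
Difference in log2(FPKM + 1) from the mean of the 3 controls (colour) for 42 mitosis genes (vertical axis, ordered by role, lines between roles) in 12 libraries (horizontal axis, lines between groups). Control library 1 is above the control mean for all 42 genes, and double-heterozygous library 0 is lowest of all libraries for 34.

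Among the mitotic kinases the values per library, in the order of the columns, show this pattern and some departures from it. Cdk1, the kinase that starts mitosis, had 115, 83.1 and 81.4 FPKM across Tet1-null libraries, 63.5, 129 and 93.3 across double-heterozygous, 103, 98.02 and 116 across Tdg-heterozygous and 85.4, 138 and 143 across control libraries. Plk1, a kinase of centrosomes, kinetochores and cytokinesis, had 26.6, 35.6 and 27.6 FPKM across Tet1-null libraries, 23.4, 33.1 and 43.5 across double-heterozygous, 27.1, 23.3 and 23.3 across Tdg-heterozygous and 29.1, 47.05 and 32.8 across control libraries. Bub1, a kinase of the spindle checkpoint, had 11.1, 10.5 and 11.9 FPKM across Tet1-null libraries, 5.62, 14.4 and 11.3 across double-heterozygous, 10.5, 13.1 and 10.4 across Tdg-heterozygous and 10.9, 21.1 and 17.3 across control libraries. Cdk1 overlapped between all groups, while all 3 Plk1 values of the Tdg-heterozygous group lay below all 3 controls. The lowest Bub1 value, in double-heterozygous library 0, was 3.75-fold below the highest, the widest ratio of all 42 genes. Aurka, Ttk and Melk, the remaining kinases, ranged from 11.8 to 28.3, from 4.17 to 9.69 and from 8.30 to 17.4 FPKM, each lowest in double-heterozygous library 0 and highest in control library 1.

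The cyclins were highest in control library 1. Ccna2, the cyclin of DNA synthesis and early mitosis, had 50.8, 64.9 and 44.9 FPKM across Tet1-null libraries, 31.4, 50.9 and 49.6 across double-heterozygous, 44.6, 43.1 and 52.1 across Tdg-heterozygous and 43.00, 73.5 and 59.9 across control libraries. Ccnb2, a partner of Cdk1, had 30.7, 36.7 and 29.8 FPKM across Tet1-null libraries, 23.8, 29.6 and 31.97 across double-heterozygous, 28.3, 25.00 and 20.9 across Tdg-heterozygous and 23.9, 42.6 and 33.4 across control libraries. Ccna2 was lowest in double-heterozygous library 0 and Ccnb2 in Tdg-heterozygous library 2, and for both genes Tet1-null library 1 ranked second after control library 1. Every Ccnb2 value of the Tdg-heterozygous group was below every Tet1-null value. Ccnb1, the other B-type cyclin, ranged from 15.7 to 36.0 FPKM and Foxm1, the transcription factor that activates many of these genes, from 8.44 to 22.4 FPKM.

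Anaphase control and checkpoint genes differed among themselves in the Tet1-null group. Ube2c, the ubiquitin-conjugating enzyme of the anaphase-promoting complex, had 66.8, 64.5 and 80.05 FPKM across Tet1-null libraries, 40.4, 65.5 and 67.1 across double-heterozygous, 66.4, 47.6 and 65.7 across Tdg-heterozygous and 66.5, 107 and 81.1 across control libraries. Mad2l1, which holds Cdc20 inactive until chromosomes are attached, had 74.6, 39.6 and 44.5 FPKM across Tet1-null libraries, 29.1, 65.4 and 52.5 across double-heterozygous, 53.02, 56.7 and 44.2 across Tdg-heterozygous and 53.7, 71.3 and 73.7 across control libraries. For Ube2c the highest Tdg-heterozygous value and the lowest control value were nearly equal but did not cross, and for Mad2l1 Tet1-null library 0 was above all controls while Tet1-null libraries 1 and 2 were below them. Cdc20, the activator of the complex, ranged from 23.5 to 53.4 FPKM, and Bub1b, a partner of Mad2l1 in inhibiting it, from 9.15 to 26.0 FPKM.

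In the chromosomal passenger complex, which corrects faulty attachments of chromosomes, Birc5, the gene of survivin, had 44.8, 60.4 and 53.99 FPKM across Tet1-null libraries, 31.9, 49.5 and 45.2 across double-heterozygous, 48.6, 36.1 and 48.5 across Tdg-heterozygous and 40.1, 64.1 and 62.1 across control libraries. Cdca8, the gene of borealin, had 23.9, 25.5 and 26.2 FPKM across Tet1-null libraries, 16.9, 27.5 and 28.8 across double-heterozygous, 24.99, 19.5 and 27.5 across Tdg-heterozygous and 19.8, 39.7 and 32.2 across control libraries. Aurkb, the kinase of the complex, had 24.00, 21.4 and 23.2 FPKM across Tet1-null libraries, 17.6, 26.1 and 31.5 across double-heterozygous, 22.9, 23.4 and 23.2 across Tdg-heterozygous and 21.5, 43.03 and 30.2 across control libraries. Control library 1 was highest for all 3 genes and double-heterozygous library 0 lowest. Birc5 in Tet1-null library 1 was close to the upper controls, whereas Aurkb there was just under the lowest control.

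Of the kinetochore and centromere genes, Cenpa, the histone variant that marks centromeres, had 42.1, 38.9 and 44.03 FPKM across Tet1-null libraries, 28.2, 42.7 and 40.6 across double-heterozygous, 41.2, 29.2 and 37.4 across Tdg-heterozygous and 35.4, 67.6 and 49.3 across control libraries. Cenpf, a kinetochore protein of late cell cycle phases, had 14.6, 12.4 and 15.5 FPKM across Tet1-null libraries, 8.09, 14.8 and 16.8 across double-heterozygous, 15.3, 11.4 and 12.02 across Tdg-heterozygous and 9.35, 23.5 and 23.2 across control libraries. For Cenpf control libraries 1 and 2 were both far above library 0, which was the second lowest of all 12. Ndc80 and Nuf2, which form the microtubule-binding complex of the kinetochore, ranged from 4.40 to 11.5 and from 6.52 to 14.2 FPKM. Cenpe ranged from 4.04 to 8.32 FPKM.

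The kinesins move chromosomes and spindle microtubules. Kif22, a chromosome-bound motor, had 19.2, 17.9 and 16.8 FPKM across Tet1-null libraries, 11.5, 17.9 and 19.3 across double-heterozygous, 18.7, 13.8 and 16.6 across Tdg-heterozygous and 14.7, 27.6 and 22.3 across control libraries. Kif23, a motor of the central spindle, had 12.7, 20.01 and 15.7 FPKM across Tet1-null libraries, 11.3, 15.7 and 16.9 across double-heterozygous, 14.2, 14.2 and 22.5 across Tdg-heterozygous and 13.8, 26.3 and 18.2 across control libraries. For Kif23 Tdg-heterozygous library 2 and Tet1-null library 1 were the highest of the mutant libraries and exceeded control libraries 0 and 2, in contrast to Kif22. Kif11, which separates spindle poles, ranged from 9.61 to 23.0 FPKM, and Kif2c, which depolymerises microtubules, from 5.85 to 14.5 FPKM. Kif20a and Kif4, both needed for cytokinesis, ranged from 7.67 to 15.8 and from 6.36 to 12.4 FPKM.

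Spindle assembly genes held the member that departed most from the rest. Tpx2, an activator of Aurka on spindle microtubules, had 19.1, 17.3 and 19.8 FPKM across Tet1-null libraries, 11.6, 20.5 and 17.8 across double-heterozygous, 16.2, 16.1 and 23.2 across Tdg-heterozygous and 14.1, 34.9 and 23.5 across control libraries. Nusap1, a protein that bundles spindle microtubules, had 16.6, 14.8 and 15.5 FPKM across Tet1-null libraries, 13.1, 17.4 and 20.1 across double-heterozygous, 16.4, 17.9 and 20.1 across Tdg-heterozygous and 12.6, 26.3 and 22.9 across control libraries. Both were highest in control library 1, with control library 0 lowest for Nusap1 and second lowest for Tpx2. Wdr62 (ENSMUSG00000037020), which is needed at spindle poles to orient the spindle, had 4.27, 6.13 and 4.68 FPKM across Tet1-null libraries, 6.32, 5.15 and 6.56 across double-heterozygous, 3.66, 3.06 and 2.37 across Tdg-heterozygous and 5.25, 6.85 and 5.32 across control libraries. All 3 Wdr62 values of the Tdg-heterozygous group lay below the 9 others, and double-heterozygous library 0, the lowest library for most members, had one of the 3 highest Wdr62 values. Hmmr, which binds spindle microtubules near the poles, ranged from 4.89 to 14.6 FPKM.

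In cytokinesis, Prc1, which bundles the microtubules of the central spindle, had 40.4, 26.5 and 38.1 FPKM across Tet1-null libraries, 23.2, 40.8 and 36.6 across double-heterozygous, 31.4, 29.02 and 32.1 across Tdg-heterozygous and 32.2, 60.2 and 44.3 across control libraries. Ect2, an exchange factor that acts at the cleavage furrow, had 20.3, 21.5 and 20.2 FPKM across Tet1-null libraries, 13.1, 25.9 and 21.9 across double-heterozygous, 17.1, 20.95 and 28.8 across Tdg-heterozygous and 17.5, 32.3 and 25.5 across control libraries. The 3 Prc1 values of the Tdg-heterozygous group were all below the lowest control by a narrow margin, while Ect2 in Tdg-heterozygous library 2 was second only to control library 1. Racgap1, the partner of Kif23 and Ect2 at the central spindle, ranged from 17.1 to 30.9 FPKM.

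Condensin and chromatin genes compact and resolve chromosomes. Top2a had 124, 76.7 and 109 FPKM across Tet1-null libraries, 52.3, 132 and 122 across double-heterozygous, 123, 106 and 100.5 across Tdg-heterozygous and 96.00, 194 and 162 across control libraries. Smc4, a condensin ATPase, had 45.5, 46.9 and 35.5 FPKM across Tet1-null libraries, 27.3, 40.7 and 38.5 across double-heterozygous, 34.9, 40.2 and 45.3 across Tdg-heterozygous and 37.3, 62.96 and 52.5 across control libraries. Ncaph, a subunit that closes the condensin ring, had 17.04, 12.9 and 14.9 FPKM across Tet1-null libraries, 11.6, 17.5 and 18.8 across double-heterozygous, 15.9, 14.7 and 13.3 across Tdg-heterozygous and 14.7, 27.6 and 19.3 across control libraries. Top2a was lowest in double-heterozygous library 0 and next lowest in Tet1-null library 1, where Smc4 was in contrast above the lowest control. Ncapd2, another condensin subunit, had 21.3, 18.6 and 16.6 FPKM across Tet1-null libraries, 16.6, 22.4 and 24.5 across double-heterozygous, 18.05, 17.8 and 15.03 across Tdg-heterozygous and 14.8, 32.6 and 23.5 across control libraries. Its lowest value was that of control library 0. Smc2, the other condensin ATPase, ranged from 11.2 to 21.0 FPKM and Mki67, which coats mitotic chromosomes and is the Ki-67 antigen used to count dividing cells, from 16.5 to 34.7 FPKM. Cdca3, placed in no class, had 52.9, 72.01 and 44.1 FPKM across Tet1-null libraries, 45.5, 55.6 and 55.1 across double-heterozygous, 51.4, 49.1 and 44.98 across Tdg-heterozygous and 39.5, 68.2 and 66.8 across control libraries, so that its highest value fell in Tet1-null library 1 and its lowest in control library 0.

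**Figure D3:**
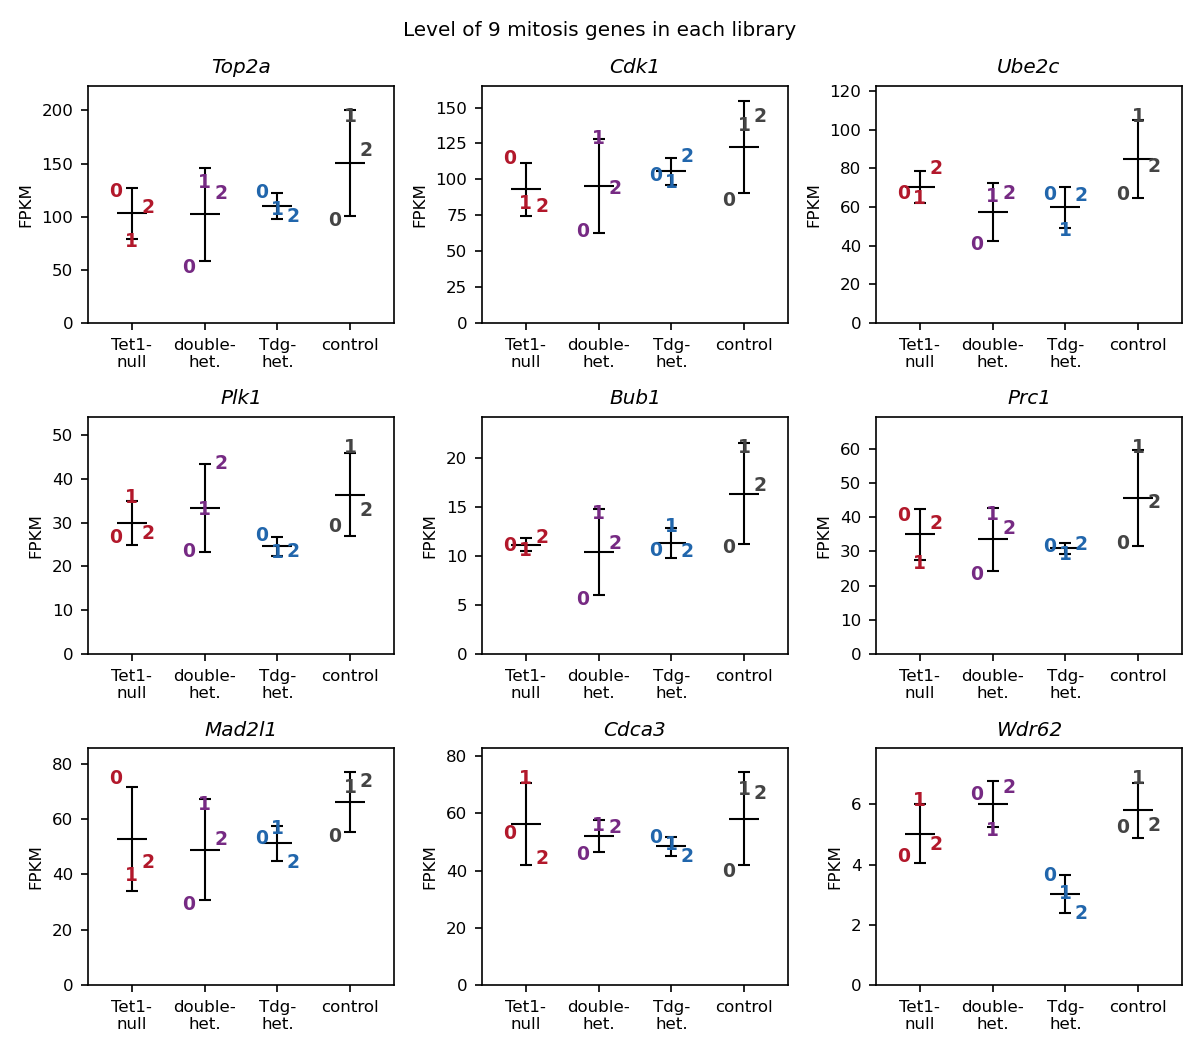
FPKM (vertical axes, from 0) of 9 mitosis genes in each library, by group (horizontal axes). Digits are the libraries by their column number, horizontal bars the group means and whiskers the SD of 3 libraries. For Wdr62 the 3 Tdg-heterozygous libraries (2.37 to 3.66 FPKM) lie below all others. For all 9 genes, Wdr62 among them, the lowest control lies within or below the range of the 9 mutant libraries.

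Tet1-null and control samples differ in both alleles of Tet1. All 42 genes had a lower mean in the Tet1-null group, with a median log2 difference of -0.23. Of the 15150 genes tested 44.9% had a lower mean, and the median over all genes was 0.029. Most members moved together across libraries, so in this and the next comparisons their directions are not independent. The pooled SD within groups of the library medians given above was 0.29 on the log2 scale. The largest difference was that of Top2a (103 ± 24.0 against 151 ± 49.98 FPKM, SD, n = 3 each), -0.51 with a standard error (SE) of 0.37, and the smallest was that of Ccnb2 (-0.0074). None of the 42 genes passed an adjusted p of 0.05 in limma (smallest adjusted p = 1), where 0.0132% of all genes passed, and at an unadjusted p under 0.05 it was 0 members, against 1.63% of all genes. The 3 members with the smallest p were Ncaph (-0.40, SE 0.24), Aurkb (-0.39, SE 0.25) and Bub1 (-0.47, SE 0.31). The groups overlapped for all 42 genes, where 2.2% of all genes were lower and 3.44% higher without overlap. Without control library 1 the median was -0.038 and 30 genes were lower. Without control library 0 it was -0.46, and 10 members had an unadjusted p under 0.05 in limma, against 1.5% of all genes. Library weights gave 9 such members, against 18.4% of all genes. Other lists had larger differences in this comparison. The median was -2.70 for 6 Paneth cell markers (5 lower, 4 at an unadjusted p under 0.05 in limma), -1.06 for 6 goblet cell markers (5 lower) and -0.95 for 19 Wnt targets (18 lower). By Tet1-null library these were -2.39, -5.26 and -0.71, -3.96, 1.03 and -0.35, and 0.25, -2.85 and -0.043. Higher lists included T and NK cell markers (0.85, 3 of 9 tested, 1 lower) and 12 neutrophil markers (0.56, 1 lower). They also included 5 B and plasma cell (0.51) and 5 leukocyte markers (0.46), with 0 lower in either. By Tet1-null library the T and NK medians were 0.79, -0.13 and 1.24, and the neutrophil medians 0.37, 1.18 and -0.23. For B and plasma cell markers they were 0.26, 0.55 and 0.77, and for leukocyte markers 0.64, 0.0205 and 0.71. In limma 0 genes of these lists passed, and the part of these lists in the members' difference was not tested.

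In the comparison of double-heterozygous with control samples, which differ by 1 allele of each gene, 41 of the 42 genes had a lower mean, where 41.5% of all genes did. The median log2 difference was -0.32, against 0.049 over all genes. Ube2c had 57.6 ± 15.0 against 84.7 ± 20.3 FPKM (-0.56, SE 0.24), Smc4 -0.50 (SE 0.22) and Bub1 10.4 ± 4.45 against 16.4 ± 5.16 FPKM (-0.64, SE 0.31), the 3 members with the smallest p. Wdr62 was the exception, at 6.01 ± 0.759 against 5.80 ± 0.906 FPKM (0.046, SE 0.19), a difference that turned negative with median-ratio scaling or quantile normalization. None passed in limma (smallest adjusted p = 1), where 0.0198% of all genes passed, and 2 members (Ube2c and Smc4) had an unadjusted p under 0.05, against 1.17% of all genes. The groups overlapped for all 42 genes, where 2.01% of all genes were lower and 5.78% higher without overlap. Without double-heterozygous library 0, which had the high neutrophil and low Wnt target values given above, the median was -0.099 with 38 genes lower. It was -0.11 without control library 1 and -0.56 without control library 0. The count of members with an unadjusted p under 0.05 was 21 without control library 0 (1.39% of all genes) and 5 without double-heterozygous library 1 (3.1%). It was 1 without any single Tdg-heterozygous library or without Tet1-null library 1 (1.22% to 1.67% of all genes). It was 0 without control library 1, control library 2, Tet1-null library 0 or double-heterozygous library 0 (0.759% to 1.19%). With a term for Xist above 10 FPKM the median was -0.16 with 39 genes lower, and the count was 0 (1.04% of all genes). Without control library 0, Xist exceeded 10 FPKM in every control left and in 0 double-heterozygous libraries. The part of neutrophils, Wnt targets and sex in this difference was not tested.

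The Tdg-heterozygous samples differ from the controls by 1 N151A allele. All 42 genes had a lower mean, where 52.8% of all genes did, and the median log2 difference was -0.30, against -0.014 over all genes. Wdr62 had the largest difference, 3.03 ± 0.641 against 5.80 ± 0.906 FPKM (-0.76, SE 0.19, unadjusted p = 0.00235 and adjusted p = 1 in limma). Plk1 followed by p, with 24.6 ± 2.23 against 36.3 ± 9.48 FPKM (-0.52, SE 0.24), and Ube2c, with 59.9 ± 10.7 against 84.7 ± 20.3 FPKM (-0.48, SE 0.24). In limma 0 members passed, where 0.0198% of all genes passed, and 1 member, Wdr62, had an unadjusted p under 0.05, against 0.898% of all genes. For 4 of the 42 genes (9.52%), Ube2c, Plk1, Wdr62 and Prc1, the Tdg-heterozygous libraries were all below the controls, against 2.4% of all genes, and 0 were all above them, against 1.61%. Without control library 1 the median was -0.13 with 37 genes lower. Without control library 0 it was -0.54, and 22 members had an unadjusted p under 0.05 in limma, against 1.14% of all genes. That count was 3 without double-heterozygous library 0 (1.1% of all genes) or with a term for Xist above 10 FPKM (0.878%). It was 2 without double-heterozygous library 2 (0.838%) or with only the groups compared (1.24%), and 6 with library weights (2.53%). Without Tdg-heterozygous library 2, the library with the highest neutrophil markers, the median was -0.36 with 42 genes lower.

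**Figure D4:**
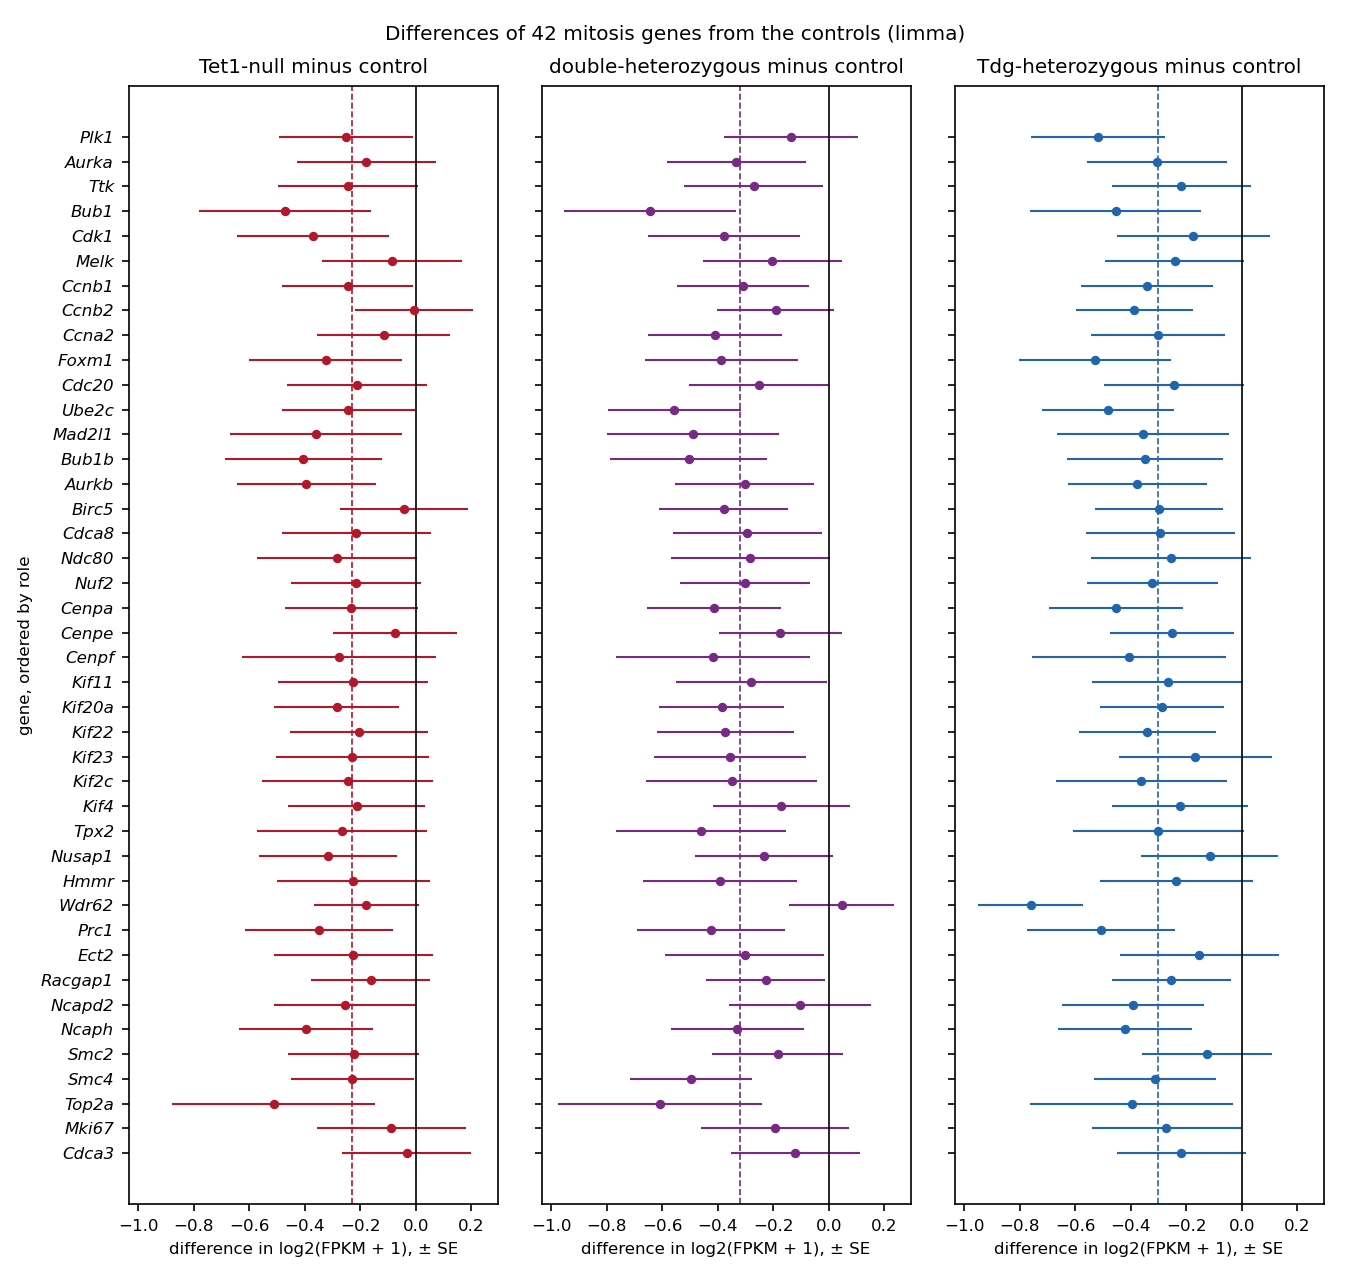
Difference in log2(FPKM + 1) from the controls (horizontal axes) of the 42 mitosis genes (vertical axis) in each mutant group, with bars of 1 SE from limma and a dashed line at the median. Nearly all points lie below 0, with medians of -0.23, -0.32 and -0.30, and 0 of the 42 genes pass the test in any panel.

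These 3 comparisons share the control samples, so their like directions are not independent. When the 3 mutant groups were averaged and set against the controls, all 42 genes were lower (45.1% of all genes were), with a median log2 difference of -0.28, against 0.023 over all genes. The members with the smallest p were Ube2c (-0.43, SE 0.20), Bub1 (-0.52, SE 0.25) and Prc1 (-0.43, SE 0.22). In limma 0 members passed (smallest adjusted p = 0.999), where 0.0198% of all genes did, and 0 had an unadjusted p under 0.05, against 1.03% of all genes. For 0 members were the 9 mutant libraries all below the controls, against 0.099% of all genes, or all above, against 0.139%. The median was -0.099 without control library 1, with 36 genes lower, and -0.53 without control library 0. In that last setting 30 members had an unadjusted p under 0.05 in limma, against 1.47% of all genes, and 14 did with library weights, against 6.28%. Leaving out any other single library gave 0 to 2 such members, against 0.713% to 1.92% of all genes. Without both control library 1 and double-heterozygous library 0, an alternative chosen after seeing the data, the median was -0.026 with 23 genes lower. A test for any difference among the 4 groups, by the moderated F statistic of limma, called 0 members, where 0.0264% of all genes passed. In this limma test Wdr62 had the smallest unadjusted p of the members (0.00571, adjusted p = 1).

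Between the mutant groups the medians of the members were smaller. Double-heterozygous minus Tdg-heterozygous samples, which share the N151A allele and differ in 1 Tet1 allele, had a median log2 difference of -0.012, with 24 genes lower, where 40.1% of all genes were lower. With libraries scaled to the same total the sign turned, to a median of 0.055 with 15 genes lower. Wdr62 stood out with 6.01 ± 0.759 against 3.03 ± 0.641 FPKM (0.81, SE 0.19, unadjusted p = 0.0016, adjusted p = 1 in limma). It was the single member whose groups did not overlap (2.38% of the members, where 4.7% of all genes were higher and 0.898% lower without overlap). Plk1 (0.38, SE 0.24) and Ncapd2 (0.29, SE 0.26) had the next smallest p, and 0 members passed, as did 0% of all genes. In that comparison 231 genes (1.52%) had an unadjusted p under 0.05, and 1 of them was a member.

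Tet1-null minus Tdg-heterozygous samples had a median of 0.088, with 12 of the 42 genes lower, where 43.3% of all genes were lower. Wdr62 (0.58, SE 0.19) and Ccnb2 (0.38, SE 0.21; 32.4 ± 3.73 against 24.7 ± 3.72 FPKM) were higher without overlap, 4.76% of the members against 1.98% of all genes, and 0 were lower without overlap, against 0.944%. Tet1-null minus double-heterozygous samples had a median of 0.092, with 9 genes lower, where 54.1% of all genes were lower, and 0 members differed without overlap, against 2.38% of all genes lower and 1.56% higher. In both comparisons 0 members passed in limma (smallest adjusted p = 1), where 0.0198% of all genes passed. At an unadjusted p under 0.05 there was 1 member, Wdr62, in the first, against 1.11% of all genes, and 0 in the second, against 1.82%.

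The order of the groups by mean FPKM of Wdr62 was double-heterozygous, control (5.80), Tet1-null (5.03 ± 0.974) and Tdg-heterozygous. The 3 upper groups overlapped one another, and the Tdg-heterozygous group did not overlap any of them. Wdr62 (chromosome 7, 30240138 to 30280419 on the minus strand, mm10) is the least expressed member, and it overlaps exons of Thap8 on the other strand, a gene with a mean of 0.123 FPKM. By role, differences from the controls were close to each other. In the Tet1-null comparison the medians of the roles with at least 3 genes ranged from -0.18 for cyclins and Foxm1 to -0.30 for anaphase control and checkpoint genes. In the double-heterozygous comparison they ranged from -0.26 for condensin and chromatin genes to -0.50 for anaphase control and checkpoint genes, and in the Tdg-heterozygous comparison from -0.25 for cytokinesis genes to -0.36 for cyclins and Foxm1.

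Most members followed one another across libraries. Pearson's r between a gene and the mean of the 41 others, over 12 libraries in log2(FPKM + 1), had a median of 0.88 and exceeded 0.8 for 33 genes, and with group means removed it exceeded 0.8 for 34. These values are a description, since the genes share the libraries, their scaling and their cell makeup. Without control library 1 and double-heterozygous library 0, the libraries farthest from the median, the median r was 0.68 and 10 genes exceeded 0.8. Wdr62 had the lowest r (0.23, Spearman's coefficient 0.36), followed by Mad2l1 (0.72) and Cdca3 (0.72). In Tet1-null library 1, the library lowest in Wnt targets, the members split. There 12 genes lay above the control mean, led by Cdca3 (0.34), Mki67 (0.27), Melk (0.23), Ccna2 (0.17) and Ccnb2 (0.17), and 30 lay below it, led by Top2a (-0.91), Bub1b (-0.77), Prc1 (-0.71) and Mad2l1 (-0.71). Mki67 had 30.9 FPKM there, second only to control library 1, while Top2a had 76.7 FPKM, second lowest of all. Of the other mutant libraries, double-heterozygous library 2 and Tdg-heterozygous library 2 had the most members above the control mean, 7 each.

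Other cell cycle genes were set beside the members as lists. Of 83 symbols written for other mitosis genes 76 were found and tested, and 72, 68 and 71 of them had a lower mean in the Tet1-null, double-heterozygous and Tdg-heterozygous groups than in the controls, with medians of -0.20, -0.27 and -0.23. Their median per library was lowest in double-heterozygous library 0 (-0.61) and highest in control library 1 (0.34), as for the members. Of 38 DNA replication genes, such as the sliding clamp gene Pcna (73.4 to 139 FPKM), 37, 36 and 37 had a lower mean in the 3 comparisons, with medians of -0.27, -0.24 and -0.13. The 15 genes listed for the anaphase-promoting complex, among them that of its activator Fzr1, had medians of -0.025, -0.021 and -0.080, with 9, 9 and 11 lower. They act in mitosis, but their RNA is made throughout the cycle. A list of 13 regulators of mitosis genes, from the DREAM and MMB complexes and with Rb1, had medians of 0.014, -0.078 and -0.070. Medians of the 7 CDK inhibitor genes were -0.0099, -0.055 and -0.17, and those of 8 cohesin genes 0.0036, 0.007 and -0.085. For 13 regulators of entry into DNA synthesis they were -0.19, -0.14 and -0.070. Of all these genes 0 passed in limma in the 3 comparisons (smallest adjusted p = 1).

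**Figure D5:**
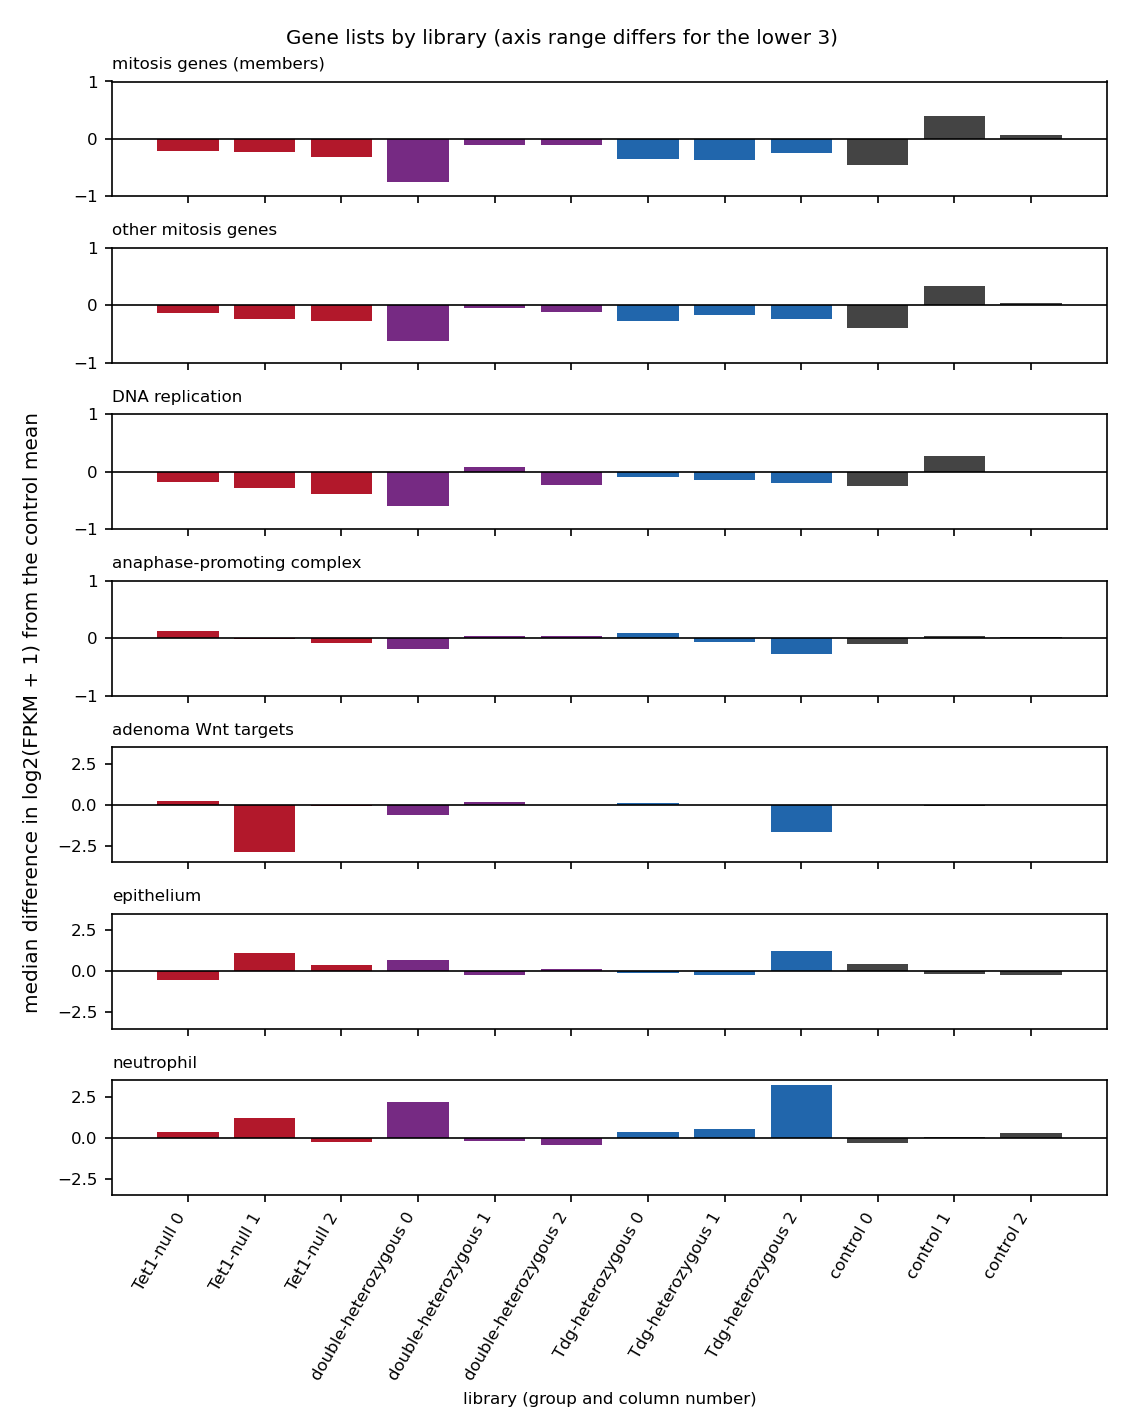
Median difference in log2(FPKM + 1) from the control mean (vertical axes) of 7 gene lists in 12 libraries (horizontal axis, coloured by group), with a wider axis range for the lower 3. Mitosis and DNA replication genes are lowest in double-heterozygous library 0 and highest in control library 1, while Wnt targets are lowest in Tet1-null library 1 (-2.85).

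Markers of other cells were compared in the libraries where the members were highest and lowest. In control library 1, highest in the members, epithelial markers had a median difference of -0.15 from the control mean, leukocyte markers 0.19 and fibroblast markers 0.15. In control library 0 they had 0.43, -0.47 and -0.74. Markers of absorptive colonocytes, the differentiated cells of the colon surface, were at 1.82 in control library 0 and -1.61 in control library 1, with summed levels of 138 to 1134 FPKM over the controls. They were also low in Tet1-null library 0 (-2.25) and double-heterozygous library 1 (-1.83), where the members' medians were -0.21 and -0.11. In double-heterozygous library 0 they were at -0.37, with epithelial markers at 0.68. Tet1-null library 1 had absorptive colonocyte markers at 2.87 and smooth muscle markers at 2.80, and Tdg-heterozygous library 2 had epithelial markers at 1.26. The part of cell makeup in the members' differences was not tested.

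Some members share sequence with other genes. Ccnb1 has processed pseudogenes that match its transcript at 97% identity or more, among them Ccnb1-ps (99.2% over 1287 bases) and Gm12856 (98.1% over 1294 bases). These were listed at means of 0.00419 and 0.00609 FPKM, against 23.3 FPKM for Ccnb1, so little signal was assigned to either. How reads that match more than 1 of these genes were assigned is not given in the sources used here. Exons of Kif20a overlap those of Cdc23 on the other strand by 1271 bases, exons of Prc1 overlap Rccd1 by 911, Kif4 Pdzd11 by 832, Ube2c Tnnc2 by 592 and Ccna2 Exosc9 by 510 bases. The labels do not say that the kit or the counting used strand, so reads in these stretches cannot be told apart. Of these neighbours Cdc23 (21.4 FPKM), Pdzd11 (35.1 FPKM) and Exosc9 (36.1 FPKM) were expressed at levels like those of the members, Rccd1 at 6.16 FPKM and Tnnc2 at 0.154 FPKM.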

How the data were processed

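RNA of 12 colonic adenoma samples was sequenced. Per the labels' protocols, TRIzol was used for extraction, a TruSeq RNA kit for libraries (500 ng of input), and reads were single-end, 75 nt long and aligned to mm10 with TopHat2. The submitters' processing notes also name Cufflinks and Cuffdiff. Versions, gene annotation and library normalization are not given in the sources used here. The values deposited by the authors are FPKM, with 0 columns left unused, and the depth in reads is unknown.

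Columns were tied to groups by letter. Genes with at least 1 FPKM in at least 3 libraries were tested as log2(FPKM + 1) in limma 3.58.1 (R 4.3.3), with 4 group means and a variance trend, with Benjamini-Hochberg adjustment over all genes tested. A fold change on this scale understates that of low genes. The code was tested on simulated data. Members and lists were chosen with earlier results of these data known. All members may be named. Values per library are given for the 2 highest members of each role and the 3 with the smallest p in each comparison with the controls and between the groups with N151A. Promoter windows are from RefSeq (GRCm38.p6), and gene positions and overlaps from GENCODE M21. Transcript copies were sought with blastn 2.17.0 (at least 75 bases at 97% identity).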

Additional observations from a re-analysis of the deposited data

How the results depend on the processing

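No member passed an adjusted p of 0.05 in any of the 7 comparisons or in the test among 4 groups under any alternative run: pseudocounts of 0.1 and 5, no filter, a mean of at least 5 FPKM (which drops Wdr62), 3 other scalings, robust variance, library weights, a term for Xist, only the groups compared, each library left out, and 3 low-Wnt libraries left out together. The smallest adjusted p of a member was 0.131, with library weights in the test among 4 groups. Those weights called 236 of all genes in place of 2 in Tet1-null minus control, and 82 in place of 3 in Tet1-null minus double-heterozygous, where the other alternatives called 0 to 13 in any comparison, against 0 to 4 as reported. At an unadjusted p under 0.05 in limma, leaving out control library 0 gave 10, 21, 22 and 30 members in the 4 comparisons with the controls. As reported these counts were 0, 2, 1 and 0. The shares of all genes without that library were 1.5%, 1.39%, 1.14% and 1.47%. In the test among 4 groups, leaving that library out gave 3 members in place of 1, against 0.898% of all genes. The median difference from the controls stayed negative in all of these alternatives. Leaving out 1 library at a time, it ranged from -0.46 to -0.038 for Tet1-null, from -0.56 to -0.099 for double-heterozygous, from -0.54 to -0.13 for Tdg-heterozygous and from -0.53 to -0.099 for all mutant groups against the controls. Without control library 1 and double-heterozygous library 0 together, chosen after seeing the data, the double-heterozygous median reversed to 0.095 (10 genes lower). The mean of the mutant groups was then lower for 23 of the 42 genes. Single values were looked at for the 2 highest members of each role and the 3 with the smallest p in this comparison. There that mean exceeded the controls, in log2, for Ccnb2 (0.035), Cdca8 (0.022), Kif23 (0.033), Tpx2 (0.032), Nusap1 (0.031), Ect2 (0.060) and Cdca3 (0.040). Other members, Ncapd2 among them, were not looked at singly. Leaving out single libraries, Cdca3 ranged from -0.38 to 0.0091, the upper value without control library 1. The cause of these reversals, beyond the libraries left out, was not tested. No paired analysis was possible, because the sources used here link no sample of one group to a sample of another. The columns are numbered 0 to 2 and the labels 1 to 3, which ties no column to a labelled replicate. Scaled to the same total, the median of all genes in Tdg-heterozygous minus control was -0.10, and that of the members -0.40.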
